A study of Homo sapiens with 4 samples.

Results

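DEAD and DEAH box proteins are the largest family of RNA helicases, and their messages were followed here through a polysome gradient. The members were all protein-coding genes of the expression table, those it classes as mRNA, with a symbol of DDX or DHX followed by digits and without a hyphen. This gave 55 of the 28198 genes in the table, or of its 19316 mRNAs. Polysome profiling was performed in MDA-MB-231 cells, a human triple-negative breast cancer line, infected with lentiviruses so that wild-type METTL3 (METTL3WT) or the acetylation-mimetic METTL3K177Q, in which a glutamine replaces the lysine that is acetylated, was reconstituted after depletion of the endogenous METTL3 by shRNA. METTL3 is the catalytic subunit of the m6A RNA methyltransferase. Cycloheximide (100 µg/mL, 5 min) was given to both genotypes to hold ribosomes on their messages, and after lysis the fractions of a 10 to 50% sucrose gradient were pooled into sub-polysome RNA (free subunits and monosomes) and polysome RNA. The 4 libraries analysed here are all labelled replicate 2, with 1 library per condition. Each genotype therefore rests here on a single gradient, no value has a replicate error, and no test between conditions could be made.

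RNA helicases of these families use ATP to open short RNA duplexes, displace proteins from RNA or clamp onto it. The DEAD box proteins pry strands apart locally, whereas the DEAH box proteins move along a strand from its 3' end. Together they serve nearly every step in the life of an RNA: splicing by the spliceosome, ribosome assembly in the nucleolus, mRNA export, translation initiation, mRNA storage and decay, and the sensing of viral RNA. In a polysome gradient, the position of a helicase's own mRNA depends on how many ribosomes it carries, and says nothing about the activity of the protein. Because the fractions were pooled into sub-polysome and polysome RNA, the data here do not give a number of ribosomes per mRNA.

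Expression was given in FPKM, fragments per kilobase of transcript scaled to the sequenced fragments of the library, which allows comparison between genes. A ratio is given as a log2 difference after adding 0.1 FPKM to each value, and translation efficiency is the polysome to sub-polysome ratio. Each fraction was sequenced as its own library. The ratio therefore compares relative levels and does not give the share of an mRNA's molecules in each fraction. The table gives no counts, but the spacing of the lowest values put the depth of the libraries at between about 23900000 and 26300000 fragments. Ribosomal protein mRNAs took 26.0% and 26.3% of all FPKM in the sub-polysome libraries and 17.4% and 14.2% in the polysome libraries of METTL3WT and METTL3K177Q cells. METTL3 itself was at 9.39 and 38.7 FPKM in METTL3WT sub-polysome and polysome RNA and at 5.07 and 29.5 FPKM in METTL3K177Q. The line's mesenchymal markers VIM (677 to 1540 FPKM), CD44 (110 to 151) and AXL (158 to 235) were abundant and the hormone receptors ESR1 and PGR did not exceed 0.0119 FPKM, while EPCAM (6.2 to 9.91) and GATA3 (2.83 to 4.95), which were placed among the low markers, were not absent.

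Of the 55 helicase mRNAs, 49 averaged 1 FPKM or more across the 4 libraries, the minimum used throughout, as did 10383 of all mRNAs. The 6 below it included all 4 germ line and cancer-testis members. DDX4 (the germ cell helicase VASA) and DDX43 were listed at 0 in every library, and DDX25 and DDX53 did not exceed 0.0404 FPKM. DDX3Y, a close relative of DDX3X, was also listed at 0 in all of them. DDX60, an interferon-induced gene, missed the minimum with 0.627 and 0.953 FPKM in METTL3WT sub-polysome and polysome RNA and 0.439 and 0.985 FPKM in METTL3K177Q, a mean of 0.751. Just inside the minimum was DHX58 with a mean of 1.35 FPKM. The helicases that passed ranged up to a mean of 196 FPKM, with a median of 9.66 FPKM beside 10.3 for all mRNAs, and 23 of 49 reached 10 FPKM.

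The sequence around the start codon is shown for the 4 helicase mRNAs that leaned most toward polysomes in METTL3WT cells and for the 4 that leaned most toward the sub-polysome fraction, since initiation is the step that loads ribosomes. Each line holds the 10 bases before the start codon, the start codon in capitals and the 7 bases after it, 5' to 3' in the sense of the gene, from the canonical transcript of GENCODE 44 on GRCh38. The 4 polysome-leaning mRNAs come first.
DDX1: cggggtgaagATGgcggcct
DDX54: cgcggcccgaATGgcggccg
DHX16: gtgagtcgccATGgcgacgc
DDX28: taagggaaacATGgctctaa
DDX6: ttaaaacagcATGagcacgg
DDX60L: agcagcaacgATGgggtcaa
DDX10: cgccgccgcaATGggcaaaa
DHX33: ccctcccgacATGccggagg
The start codons lie at chr2:15591934-15591936 on the plus strand for DDX1, chr12:113185449-113185451 on the minus strand for DDX54, chr6:30672839-30672841 on the minus strand for DHX16 and chr16:68023200-68023202 on the minus strand for DDX28. Those of the sub-polysome group lie at chr11:118786249-118786251 (minus) for DDX6, chr4:168472697-168472699 (minus) for DDX60L, chr11:108665154-108665156 (plus) for DDX10 and chr17:5468857-5468859 (minus) for DHX33. A G directly after the ATG and a purine 3 bases before it are the main features of the Kozak context that favours initiation. All 4 polysome-leaning mRNAs carried the G, and so did DDX60L and DDX10, but not DDX6 or DHX33. The purine was present in all 4 sub-polysome mRNAs and in DDX1, DHX16 and DDX28, but not in DDX54. Over the 48 helicases with an ATG start in this annotation, 45 (93.8%) had the purine, beside 87.6% of all mRNAs, and 30 (62.5%) had the G, beside 54.4%. Both were present in 28 of 48 (58.3%), beside 47.5%. An ATG upstream of the start was found in the 5' UTR of 13 of 48 (27.1%), beside 37.8% of all mRNAs.

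Helicase mRNAs leaned toward the polysome fraction in METTL3WT cells. The median ratio over the 49 was 0.79 on the log2 scale (1.72-fold), beside 0.18 (1.14-fold) for all mRNAs, and 44 of 49 (89.8%) lay on the polysome side, beside 59.7%. At least 1.5-fold more in polysomes were 32 of 49 helicases, beside 29.4% of all mRNAs, and at least 1.5-fold less were 3, beside 16.0%. The helicases together took 0.0913% of all FPKM in METTL3WT sub-polysome RNA and 0.19% in polysome RNA, and 0.07% and 0.187% in METTL3K177Q. Rescaling a library does not change these shares, but they depend on what else fills its total, such as ribosomal protein mRNAs. In METTL3K177Q cells the median ratio was 1.02 (2.03-fold), beside 0.21 (1.16-fold) for all mRNAs. There, 37 of 49 helicases were at least 1.5-fold higher in polysomes, beside 31.5%, and 3 at least 1.5-fold lower, beside 18.1%. In both genotypes 42 of 49 (85.7%) were on the polysome side, beside 53.4% of all mRNAs, and 4 (8.16%) on the sub-polysome side, beside 34.0%, which were DDX6, DDX60L, DDX10 and DHX33.

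**Figure D1:**
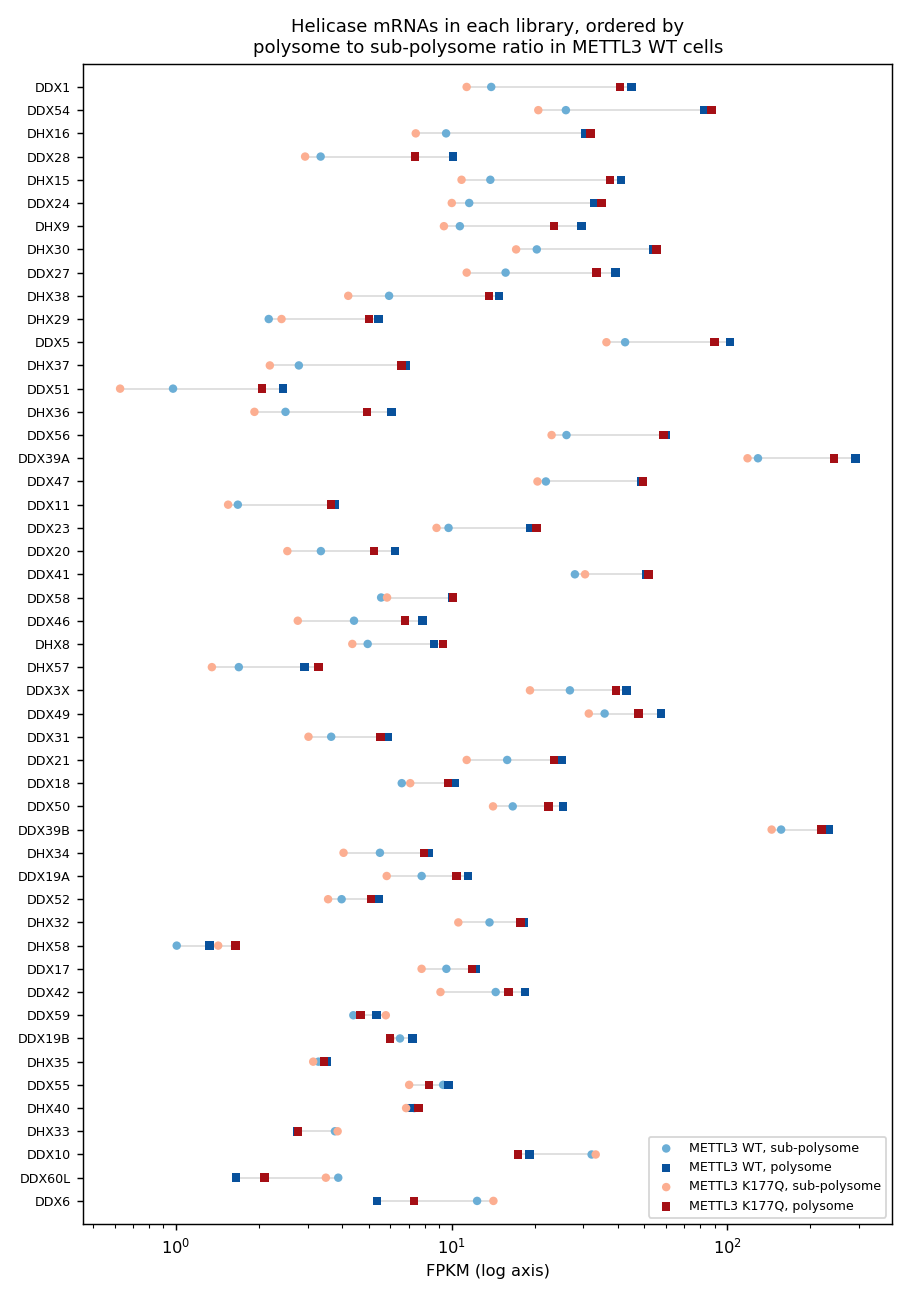
Level of each of the 49 helicase mRNAs in FPKM on a log axis in the 4 libraries (circles, sub-polysome; squares, polysome; blue, METTL3WT; red, METTL3K177Q), ordered by the polysome to sub-polysome ratio in METTL3WT cells. The squares lie to the right of the circles in both genotypes for 42 mRNAs, and to the left for DDX6, DDX60L, DDX10 and DHX33 at the bottom.

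The strongest polysome lean was that of DDX1, a helicase of the tRNA ligase complex, at chromosome 2 from 15591178 to 15634346. Its mRNA was at 13.9 FPKM in METTL3WT sub-polysome RNA, 44.9 in METTL3WT polysome RNA, 11.3 in METTL3K177Q sub-polysome RNA and 40.8 in METTL3K177Q polysome RNA. Both polysome values lay well above both sub-polysome values, with ratios of 3.21-fold and 3.57-fold. DDX54, a nucleolar helicase at chromosome 12 from 113157173 to 113185479, was at 26.0, 82.9, 20.6 and 87.7 FPKM in the same order, ratios of 3.18-fold and 4.23-fold. DHX16, the spliceosomal helicase that acts just before the first catalytic step, at chromosome 6 from 30653119 to 30673006, was at 9.55, 30.5, 7.41 and 32.0 FPKM. Its ratios were 3.18-fold in METTL3WT and 4.27-fold in METTL3K177Q. For both DDX54 and DHX16 the sub-polysome value was lower and the polysome value slightly higher in METTL3K177Q than in METTL3WT cells. DDX28, a helicase of mitochondrial ribosome assembly encoded on chromosome 16 from 68020916 to 68023232, was at 3.35, 10.1, 2.94 and 7.36 FPKM. Here the polysome value was the one that differed more between genotypes, and the ratio was 2.96-fold in METTL3WT and 2.45-fold in METTL3K177Q.

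At the other end stood DDX6, at chromosome 11 from 118747763 to 118791164, the P-body helicase that acts in translational repression and mRNA decay. Its mRNA was at 12.4 FPKM in METTL3WT sub-polysome RNA, 5.37 in METTL3WT polysome RNA, 14.2 in METTL3K177Q sub-polysome RNA and 7.3 in METTL3K177Q polysome RNA. Polysome RNA held 0.438 times the sub-polysome level in METTL3WT and 0.518 times in METTL3K177Q. DDX60L, an interferon-induced helicase at chromosome 4 from 168356735 to 168537786, was at 3.88, 1.65, 3.5 and 2.09 FPKM, ratios of 0.44-fold and 0.609-fold. In both of these mRNAs the polysome level was higher in METTL3K177Q than in METTL3WT cells. DDX10, a helicase of small ribosomal subunit assembly at chromosome 11 from 108665058 to 108940999, was at 32.2, 19.2, 33.3 and 17.4 FPKM, and its ratio was 0.597-fold in METTL3WT and 0.524-fold in METTL3K177Q. It was the only member of its group of 15 on the sub-polysome side. DHX33, a helicase linked to ribosomal RNA synthesis and translation initiation at chromosome 17 from 5440917 to 5468982, was at 3.77, 2.74, 3.86 and 2.77 FPKM and differed little between genotypes, at 0.734-fold and 0.724-fold.

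The 4 most abundant helicase mRNAs, those with a mean of at least 50 FPKM, were DDX39A, DDX39B, DDX5 and DDX54. DDX39A and its paralog DDX39B (UAP56), which couple splicing to mRNA export, lie at chromosome 19 from 14408798 to 14419383 and at chromosome 6 from 31530219 to 31542448. DDX39A was at 129 and 293 FPKM in METTL3WT sub-polysome and polysome RNA and at 119 and 244 FPKM in METTL3K177Q. DDX39B was at 157 and 234 FPKM in METTL3WT and at 145 and 220 FPKM in METTL3K177Q. Although the total levels of the 2 paralogs were alike, the polysome ratio of DDX39A was 2.26-fold and that of DDX39B 1.49-fold in METTL3WT cells. The transcript of DDX39B is wholly contained in an annotated readthrough transcript with ATP6V1G2, which was listed at 0.0674 to 0.347 FPKM. DDX5 (p68), a splicing and transcription co-factor at chromosome 17 from 64498254 to 64508199, was at 42.6 and 103 FPKM in METTL3WT and at 36.5 and 89.8 FPKM in METTL3K177Q. Its ratio was nearly the same in both, 2.4-fold and 2.46-fold.

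In the translation and cytoplasmic mRNA group, 6 of 7 members passed the minimum, with a median METTL3WT ratio of 0.63 and 4 of 6 on the polysome side. The initiation helicases DDX3X, DHX29 and DHX36 were at 0.68, 1.29 and 1.24 on the log2 scale, and DHX34, a factor of nonsense-mediated decay, at 0.57. DDX6 and DHX33 made up the rest. This group had the widest spread among the roles with more than 3 members, from -1.19 to 1.29. The 15 ribosome biogenesis helicases had a median of 0.68 and 14 of them lay on the polysome side. They ranged from DDX10 and DDX55 (0.06) to DDX54 (1.67), and 12 were at least 1.5-fold higher in polysomes. DDX21 and DDX50, the nucleolar paralogs, had similar ratios of 0.65 and 0.60.

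All 11 splicing helicases lay on the polysome side in both genotypes, with a median of 0.86 in METTL3WT. Among those that drive the spliceosome through its steps, DHX16 (1.67), DHX15 (1.57) and DHX38 (1.31) stood above DDX23 (0.98), DDX46 (0.81) and DHX8 (0.79). The paralogs DDX5 and DDX17, which share much of their sequence and many partners, differed, with ratios of 1.27 and 0.35. The 4 export helicases had a median of 0.56, and the nuclear pore helicases DDX19A and DDX19B were at 0.55 and 0.15. The DDX19A transcript overlaps another annotated gene on the same strand over 64.2% of its length, and DDX19A and DDX19B are near-identical copies between which reads could have been split, so their values are uncertain. The mitochondrial helicases DDX28 and DHX30 were both well into polysomes, at 1.57 and 1.40.

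Of the 4 RNA sensors, 3 passed the minimum. DDX58 (RIG-I), the sensor of viral RNA, was at 5.55 and 10.0 FPKM in METTL3WT sub-polysome and polysome RNA and at 5.83 and 10.1 FPKM in METTL3K177Q, a ratio of 0.84 and 0.79 on the log2 scale. Its regulator DHX58 (LGP2) was at 1.01 and 1.32 FPKM in METTL3WT and at 1.42 and 1.64 FPKM in METTL3K177Q. The METTL3K177Q to METTL3WT ratio in polysome RNA was 0.01 for DDX58, 0.29 for DHX58 and 0.32 for DDX60L on the log2 scale, none of them past 1.5-fold. For DDX58, 96.6% of the transcript overlaps a further gene annotated on the same strand, and DDX60L shares sequence with DDX60. The 8 members in other roles had a median of 0.81 in METTL3WT, led by DDX1 and DHX9 (1.46), an RNA helicase with roles in transcription and genome stability, and ending with DHX40 (-0.04). DDX11, a DNA helicase of sister chromatid cohesion, was at 1.68, 3.76, 1.55 and 3.66 FPKM and could share reads with its pseudogene copy DDX12P, which was listed at 0.257 to 0.649 FPKM.

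The mRNAs with a DHX symbol leaned somewhat further toward polysomes than those with a DDX symbol. The median was 1.01 over 16 DHX mRNAs and 0.68 over 33 DDX mRNAs in METTL3WT cells. This split is by gene symbol and not by the sequence family of the protein. The coding sequences of the DHX mRNAs were also longer, with a median of 3280 bases against 2010. The 2 sets overlapped widely.

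Next, the translation efficiency of helicase mRNAs was compared between METTL3K177Q and METTL3WT cells. It was higher in METTL3K177Q for 36 of 49 helicases and lower for 13, with a median log2 ratio of 0.17 (1.13-fold), beside -0.00 over all mRNAs, of which 49.9% were above 0. The differences were small. None of the 49 was at least 1.5-fold higher, beside 3.73% of all mRNAs, and none at least 1.5-fold lower, beside 5.59%. The helicases ranged from -0.58 to 0.47. Counting error on a single helicase's ratio, estimated from the approximate depth, was 0.033 to 0.312 with a median of 0.0989. This error does not include variation between cultures, gradients or libraries.

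**Figure D2:**
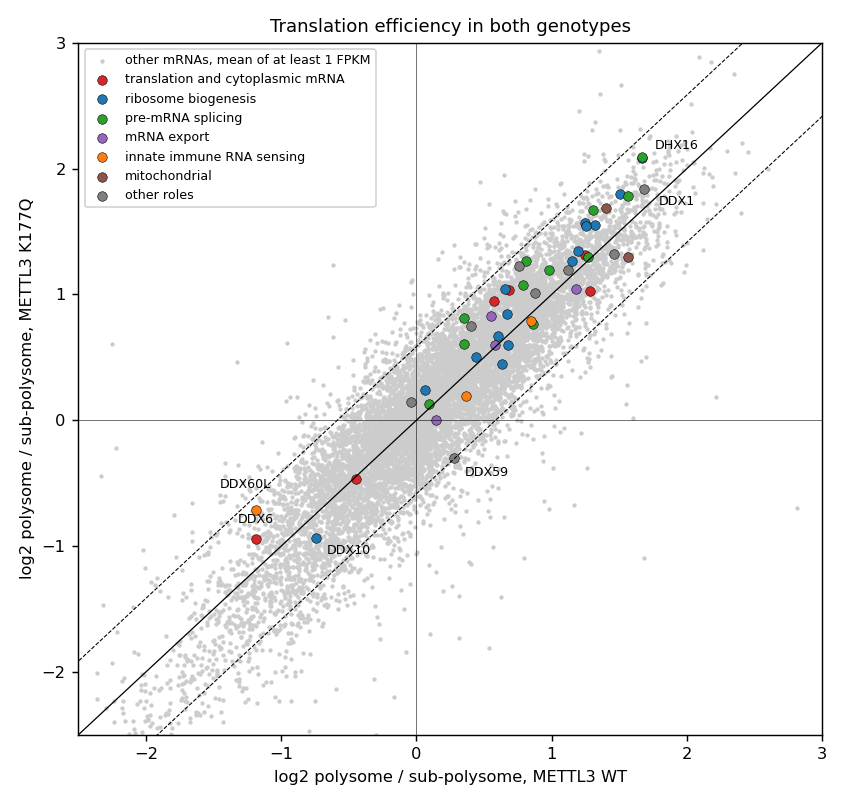
Log2 polysome to sub-polysome ratio in METTL3WT cells (x axis) and METTL3K177Q cells (y axis) for 49 helicase mRNAs coloured by role, over all other mRNAs with a mean of at least 1 FPKM in grey; mRNAs beyond the axes are not drawn. The solid line marks equal ratios and the dashed lines a 1.5-fold difference, and 36 helicases lie above the solid line, with all 49 between the dashed lines.

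On the deposited FPKM scale, the difference lay in the sub-polysome fraction more than in polysomes. In sub-polysome RNA, 40 of 49 helicases were lower in METTL3K177Q than in METTL3WT, beside 51.0% of all mRNAs. Their median was -0.21, beside -0.01 for all mRNAs. DDX42 and DDX46 were at least 1.5-fold lower there, 2 of 49, beside 2.7% of all mRNAs, and no helicase was at least 1.5-fold higher, beside 3.48%. In polysome RNA, 34 of 49 were lower, beside 53.0% of all mRNAs, with a median of -0.09 beside -0.02. No helicase was past 1.5-fold there in either direction, beside 1.81% of all mRNAs higher and 2.02% lower. Thus 30 of 49 helicases (61.2%) were lower in both fractions of METTL3K177Q cells, beside 29.9% of all mRNAs. Lower in sub-polysome but higher in polysome RNA were 10 of 49 (20.4%), beside 21.1%.

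These directions depend in part on how the libraries are scaled, since the summed FPKM differed between them, from 767949 in METTL3K177Q polysome RNA to 1037590 in METTL3K177Q sub-polysome RNA. When each library was rescaled to the same total (TPM), the translation efficiency ratio of all mRNAs shifted by 0.30. Then 48 of 49 helicases had a ratio above 0, as did 80.2% of all mRNAs, and 13 of 49 were at least 1.5-fold higher and none lower, compared with 18.5% of all mRNAs higher. With equal totals over all genes except those of ribosomal proteins, the count was 10 of 49, compared with 13.7% of all mRNAs. Relative to the median of all mRNAs the helicases were 0.17 higher under each scaling, and 36 of 49 lay above that median. A scaling shifts the ratio of every gene by nearly the same amount, so these values could hardly differ between scalings. The lower polysome level did not hold in the same way. Under TPM 25 of 49 helicases were lower, beside 37.9% of all mRNAs. With ribosomal protein genes left out 31 were lower, beside 46.8%. In sub-polysome RNA 47 of 49 were lower under both, beside 76.8% of all mRNAs under TPM and 76.3% without ribosomal protein genes. At least 1.5-fold lower there were 11 of 49 under TPM, in place of 2, beside 9.59% of all mRNAs. Without ribosomal protein genes 10 of 49 were, beside 9.1%.

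**Figure D3:**
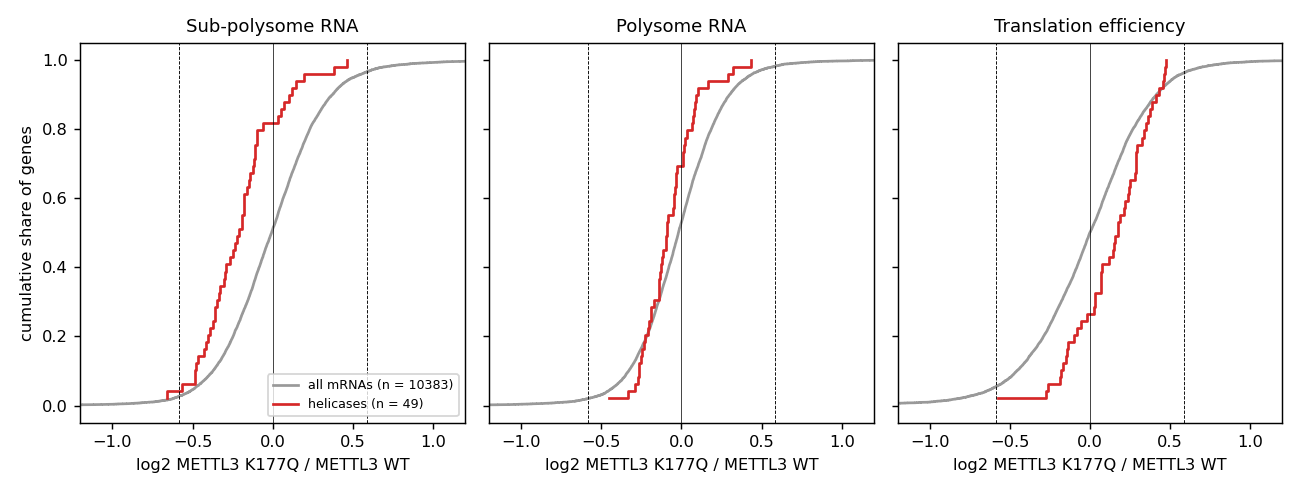
Cumulative share of genes (y axis) by the log2 METTL3K177Q to METTL3WT ratio (x axis) in sub-polysome RNA, polysome RNA and translation efficiency, for 49 helicase mRNAs (red) and all 10383 mRNAs (grey), with dashed lines at 1.5-fold. The helicase curve lies left of the grey curve in sub-polysome RNA (medians -0.21 and -0.01), close to it in polysome RNA and right of it in translation efficiency (medians 0.17 and -0.00).

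By role, the translation efficiency ratio on the deposited scale had its highest median among the splicing helicases, at 0.25, with 10 of 11 above 0. Their median in sub-polysome RNA was -0.30, with 10 of 11 lower in METTL3K177Q. This ranking did not hold in every setting. With the trend on coding length removed, as described below, the splicing median was 0.07, with 8 of 11 above 0, and the ribosome biogenesis median was 0.09. With a minimum mean of 5 FPKM, the translation group was highest, at 0.35 over 3 members. DDX42, a partner of the U2 snRNP, lies at chromosome 17 from 63773603 to 63819317 and was at 14.5 FPKM in METTL3WT sub-polysome RNA, 18.5 in METTL3WT polysome RNA, 9.11 in METTL3K177Q sub-polysome RNA and 16.1 in METTL3K177Q polysome RNA. DDX46 (PRP5), which acts in U2 snRNP recruitment, lies at chromosome 5 from 134758771 to 134855133 and was at 4.42, 7.84, 2.77 and 6.78 FPKM in the same order. Both had a sub-polysome level 0.633 times that of METTL3WT cells but a polysome level of 0.871 and 0.867 times, and so translation efficiency ratios of 0.46 and 0.45. DDX41 was the exception in this group, at -0.10. These 4 values per gene come from single libraries, and DDX42 and DDX46 were chosen for naming after their values were seen.

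Among the ribosome biogenesis helicases the median was 0.17, with 12 of 15 above 0 and 13 of 15 lower in METTL3K177Q sub-polysome RNA. DDX54 (0.41), DDX21 (0.39) and DDX51 (0.32) were highest, and DDX10 (-0.19), DDX18 (-0.18) and DDX49 (-0.08) were below 0. In the translation group, with a median of 0.16, DHX34 (0.38) and DDX3X (0.35) stood above DHX36 (0.07), and DHX29 (-0.26) and DHX33 (-0.02) were below 0. DDX3X was at 26.9 and 43.1 FPKM in METTL3WT sub-polysome and polysome RNA and at 19.2 and 39.5 FPKM in METTL3K177Q. The export helicases had a median of -0.06, which became 0.24 under TPM, and all 4 were lower in METTL3K177Q in both fractions, or 3 of 4 in polysome RNA under TPM. The 2 mitochondrial helicases had opposite signs, at -0.27 for DDX28 and 0.29 for DHX30. On the deposited scale, in no role group did a member reach a 1.5-fold difference in translation efficiency. Under TPM, 13 of 49 helicases were at least 1.5-fold higher, beside 18.5% of all mRNAs.

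DDX59, a helicase of unsettled function known from a ciliopathy, had the lowest translation efficiency ratio, at -0.58 with a counting error of 0.172, just inside the 1.5-fold limit of 0.585. It lies at chromosome 1 from 200623896 to 200669907. Its mRNA was at 4.4 FPKM in METTL3WT sub-polysome RNA, 5.34 in METTL3WT polysome RNA, 5.77 in METTL3K177Q sub-polysome RNA and 4.66 in METTL3K177Q polysome RNA. On this scale it was on the polysome side in METTL3WT cells (0.27) and on the sub-polysome side in METTL3K177Q cells (-0.30), whereas under TPM it was on the polysome side in both, at 0.41 and 0.12. Next lowest were DDX28 at -0.27 and DHX29 at -0.26, and the counting error of DDX28 was 0.177. The highest ratios were those of DHX57 and DDX60L, both 0.47. DHX57, a little-studied DEAH box member at chromosome 2 from 38797729 to 38875934, was at 1.69, 2.92, 1.35 and 3.29 FPKM, and its counting error was 0.183.

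Coding-sequence length was one of several features that moved with these ratios. The 49 helicases had a median coding sequence of 2241 bases, beside 1320 for all mRNAs, whereas their 3' UTR was shorter, with a median of 919 bases beside 1199, as was the 5' UTR, 87 bases beside 129. Across all 10360 mRNAs with a coding length, the translation efficiency ratio had a Spearman correlation of 0.46 with it, and across the 49 helicases of 0.45. With whole-transcript length the correlation was 0.48 over all mRNAs and 0.45 over helicases. With 3' UTR length it was 0.31 and 0.21, and with mean FPKM -0.31 and 0.00. Genes within the same 4 libraries are not independent. The METTL3WT polysome ratio had a weaker correlation with coding length, 0.23 over all mRNAs and 0.26 over helicases, and one of -0.19 and -0.28 with the length of the 3' UTR. The trend of all mRNAs on coding length was then removed, an alternative added after seeing the data. The helicases' median translation efficiency ratio was 0.06 after this step, with 29 of 49 above 0, beside 49.7% of all mRNAs. DDX59 was at -0.66, followed by DHX29 at -0.50. Only DDX59, 1 of 49, was at least 1.5-fold lower, beside 3.9% of all mRNAs. The median METTL3WT polysome ratio was 0.46 after this step, and that in METTL3K177Q 0.53. In METTL3WT cells 41 of 49 helicases were then above 0, beside 50.3% of all mRNAs, and those at least 1.5-fold higher in polysomes numbered 21 in place of 32, beside 20.9%. In sub-polysome RNA the median became -0.15, with 36 of 49 below 0, beside 49.7% of all mRNAs. In polysome RNA it became -0.12, with 38 of 49 below 0, beside 50.1%. The METTL3K177Q to METTL3WT difference was then similar in both fractions. DDX42 and DDX46 were then at 0.28 and 0.25 in translation efficiency and at -0.53 and -0.52 in sub-polysome RNA.

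**Figure D4:**
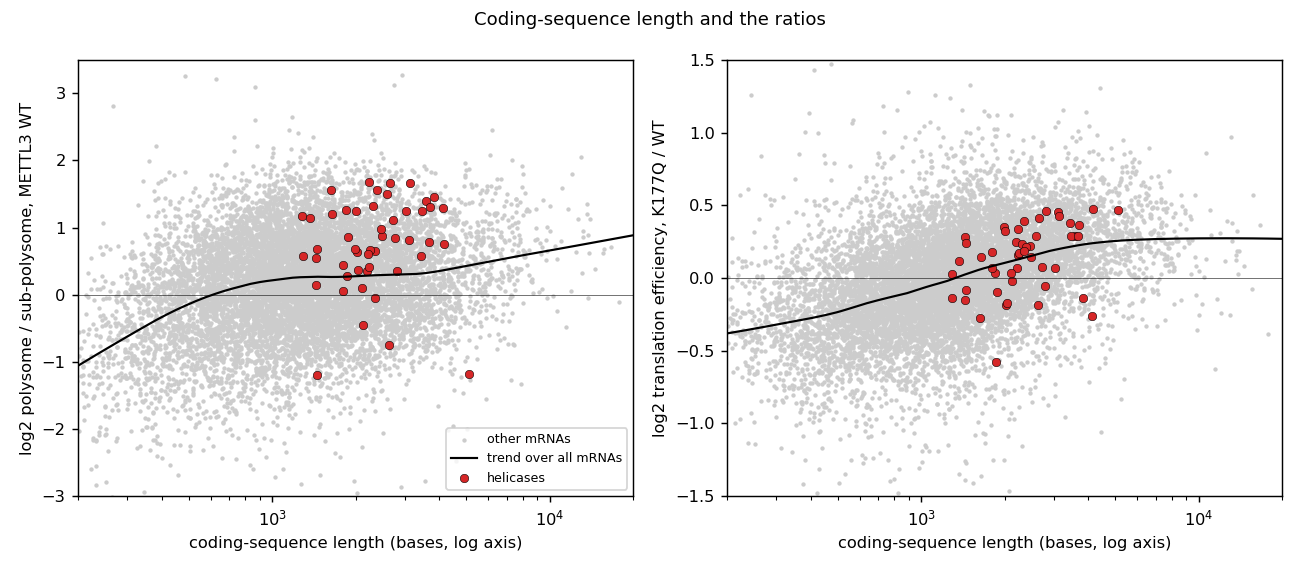
Log2 polysome to sub-polysome ratio in METTL3WT cells (left) and log2 translation efficiency ratio of METTL3K177Q to METTL3WT (right) against coding-sequence length in bases on a log axis, for 49 helicases (red) and other mRNAs (grey, those beyond the axes not drawn), with the smoothed trend over all mRNAs as a line. Most helicases lie above the line on the left (41 of 49, beside 50.3% of all mRNAs), and 29 of 49 do so on the right, beside 49.7%.

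Other RNA helicases, outside the DDX and DHX names, were taken from a list of 19 genes, of which 18 passed the minimum. Their METTL3WT polysome ratio had a median of 0.76, close to the 0.79 of the DDX and DHX helicases. Above 0 were 17 of 18, beside 59.7% of all mRNAs, and 10 were at least 1.5-fold higher, beside 29.4%. Their translation efficiency ratio had a median of 0.11, with 12 of 18 above 0, beside 49.9% of all mRNAs. At least 1.5-fold higher in METTL3K177Q were 2, beside 3.73%. These were ASCC3 (0.90), which splits collided ribosomes, and DICER1 (0.76), named after their values were seen. Both were near the minimum. ASCC3 was at 1.48 and 1.59 FPKM in METTL3WT sub-polysome and polysome RNA and at 0.973 and 2.03 FPKM in METTL3K177Q. DICER1 was at 2.2 and 2.07 FPKM in METTL3WT and at 1.43 and 2.36 FPKM in METTL3K177Q. The DEAD box initiation factor EIF4A1, the founding member of the DEAD box family, was at 380 and 989 FPKM in METTL3WT and at 404 and 966 FPKM in METTL3K177Q, far above any DDX or DHX mRNA. Its paralog EIF4A2 was at 158 and 163 FPKM in METTL3WT and at 145 and 162 FPKM in METTL3K177Q, similar levels in both fractions. EIF4A3, the helicase of the exon junction complex, was at 25.5 and 136 FPKM in METTL3WT and at 26.3 and 122 FPKM in METTL3K177Q, and its METTL3WT ratio of 2.40 on the log2 scale was above that of every DDX and DHX helicase.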

How the data were processed

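Sub-polysome and polysome RNA of METTL3WT and METTL3K177Q reconstituting MDA-MB-231 cells was poly(A)-selected by the authors and sequenced as strand-directional libraries on the NovaSeq6000. The authors deposited one table of FPKM per gene. Their processing notes name STAR 2.7, StringTie 2.1.5 and hg38, without roles, and the annotation is not given in the sources used here. The table also has 4 value columns whose names mark them as replicate 1 of the same conditions. No sample listed for this work matches them, so they were left out and replicate 1 was not analysed here.

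Ratios were computed as log2 (FPKM + 0.1) over genes averaging 1 FPKM or more, and a gene was counted at 1.5-fold. With the 1 library per condition that remained, no test was possible and no p-value is given. The members and gene lists were chosen with earlier results of these data known. All 4 values are given for members with a mean of at least 50 FPKM, for members past 1.5-fold in translation efficiency and for the 4 highest and 4 lowest METTL3WT ratios, by a rule that named 11 members; values of other members in all libraries were added after seeing them.

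Positions, lengths and sequences come from the canonical transcript of GENCODE 44 on GRCh38, found for all 55 members, and the authors' annotation may differ. Depth was approximated from the lowest cluster of FPKM times transcript length (0.025 to 0.055, limits chosen after seeing the values) taken as 1 fragment. Counting errors derived from it cover counting only. Alternatives were other pseudocounts, minimums, library scalings and a 2-fold threshold, and removal of a lowess trend on coding length (span 0.3) was added later. The calculation was tested on simulated data. The analysis ran in Python 3.11.15 (numpy 2.4.6, pandas 2.3.3, statsmodels 0.14.6, scipy 1.17.1), and plots were drawn with matplotlib 3.10.9.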

Additional observations from a re-analysis of the deposited data

Results flagged for a closer look

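Of the 49 helicase mRNAs, 3 lay on opposite sides of an even ratio (equal FPKM in both fractions) in the 2 genotypes on the deposited FPKM scale. DDX59 had a log2 polysome to sub-polysome ratio of 0.27 in METTL3WT and -0.30 in METTL3K177Q. DDX19B had 0.15 in METTL3WT and -0.0023 in METTL3K177Q, the second of which is close to even. DHX40 had -0.04 in METTL3WT and 0.15 in METTL3K177Q. The even point depends on the scaling. Under TPM all 3 were on the polysome side in both genotypes, at 0.41 and 0.12 for DDX59, 0.28 and 0.43 for DDX19B and 0.09 and 0.57 for DHX40. With the trend on coding length removed, DDX19B (-0.12 and -0.30) and DHX40 (-0.33 and -0.29) were on the sub-polysome side in both. With 1 library per condition, the difference between the genotypes was not tested for any of them.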

How the results depend on the processing

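No paired analysis was possible because only replicate 2 of each condition was analysed, and no library was left out in turn for the same reason. With a pseudocount of 1, the median METTL3K177Q polysome ratio was 0.82. With a pseudocount of 0.01, 1 helicase (DDX59) was at least 1.5-fold lower in translation efficiency in METTL3K177Q, beside 5.81% of all mRNAs. Under TPM, the medians were 0.92 in METTL3WT, 1.45 in METTL3K177Q, 0.46 for translation efficiency and -0.41 for sub-polysome RNA. There, 13 helicases were at least 1.5-fold higher in translation efficiency, beside 18.5% of all mRNAs. With equal totals outside ribosomal protein genes, the METTL3K177Q ratio was 1.23, translation efficiency 0.40, with 10 helicases higher, beside 13.7% of all mRNAs, and sub-polysome RNA -0.41. With median-of-ratios size factors, the METTL3K177Q ratio was 0.92 and 1 helicase was lower, again DDX59, beside 5.91% of all mRNAs. With the trend on coding length removed (added after seeing the data), the medians were 0.46 in METTL3WT, 0.53 in METTL3K177Q and 0.06 for translation efficiency. There, 1 helicase was lower, beside 3.9% of all mRNAs. The scalings differ from the deposited FPKM by one factor per library, which moves every gene of a library alike. No median over the 49 helicases changed sign, but the median METTL3K177Q to METTL3WT ratio in polysome RNA went from -0.09 to -0.00 under TPM. Single values did change sign. The translation efficiency ratio changed sign for 12 helicases under TPM, 10 with equal totals outside ribosomal protein genes and 7 with the trend removed. DDX39A was more than 2 counting errors from 0 on both sides of that change, at -0.14 as deposited, 0.16 under TPM and 0.10 with equal totals. Over all settings, 294 of 379 single translation efficiency values stayed within counting error and 85 moved beyond it. For the METTL3WT polysome ratio 288 of 379 stayed and 91 moved. A change of the minimum cannot move a single value, so those settings only add to the values that stayed. A rescaling uses the same counts, so counting error serves here only as a scale. The approximate depth limits single ratios most for DHX58, with a counting error of 0.312.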
